A study of Mus musculus with 12 samples.

Results

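The Slc25 genes encode the mitochondrial carrier family, the proteins that move metabolites across the inner mitochondrial membrane. Every protein-coding gene whose symbol is Slc25a followed by a number was taken as a member, which gave 47 of the 49585 genes in the count tables. Symbols, types and positions were read from the GENCODE M21 annotation of GRCm38, and a pseudogene, Slc25a5-ps, was left out by its type. The members were sorted by the substrate their carriers are known for: 8 for adenine nucleotides and phosphate, 4 for di- and tricarboxylates, 9 for amino acids, 1 for acylcarnitines, 9 for cofactors and pyrimidine nucleotides, 2 for glutathione, 2 for iron, 3 resembling the uncoupling proteins and 9 to which no substrate was assigned.

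Mitochondrial carriers are nuclear-encoded proteins that are made in the cytosol and inserted into the inner membrane by the TIM22 machinery. Most exchange a metabolite of the matrix for one of the intermembrane space, so that ATP, phosphate, citrate, malate, amino acids, fatty acyl groups and cofactors pass between the compartments. In the exocrine pancreas, acinar cells make large amounts of digestive enzymes and need ATP for synthesis and secretion, and cerulein, a peptide that acts on the cholecystokinin receptor, raises cytosolic and mitochondrial calcium in these cells. Several carriers, among them those for ATP-Mg and for aspartate and glutamate, bind calcium through a domain that faces the intermembrane space.

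The libraries came from whole pancreas of mice aged 2 to 4 months, either C57Bl6 controls or Atf3-/- mice congenic with that strain, Atf3 being a transcription factor of the stress response. Each animal received 4 injections over 4 h, of saline or of cerulein at 50 ug/kg, and tissue was taken 4 h into treatment. There were 3 animals in each of 4 groups. In this order of libraries, values are given throughout for wild-type saline (W1, K5, R3), wild-type cerulein (O1, O3, N3), labelled knockout saline (S1, K4, Q1) and labelled knockout cerulein (C2, L4), with C3, the remaining library of the last group, given apart. Neither the deleted part of Atf3 nor the breeding of the knockout is given in the sources used here.

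The libraries held 18292997 to 32158629 counts. Atf3 was not lower in the libraries labelled knockout: it had 11124 to 21041 counts in wild-type cerulein, 36403 in C2 and 62827 in L4, so these groups are called labelled knockouts. C3, labelled knockout and cerulein, stood apart with 442 Atf3 counts. On the first principal component of all genes, with 56.3% of the variance, C3 lay at -55.9, among the saline libraries (-58.8 to -46.4) and away from the other cerulein libraries (61.9 to 86.1). All 9 acinar markers were found, with a summed level of 358876 to 532510 CPM (counts scaled to 1e6 per library) in the saline libraries, 260995 to 323428 in O1, O3, N3, C2 and L4, and 423956 in C3. The 4 duct markers summed to 24.2 to 29.7 CPM in saline, 149 to 226 in wild-type cerulein, 80.5 in C2, 97.5 in L4 and 27.2 in C3. The 5 adipocyte markers were highest in N3 (326 CPM) and K4 (415 CPM) and reached 29.4 to 123 CPM elsewhere. In O1, O3, Q1, C2 and C3 this sum was nearly all from 1 marker, Fabp4 (29.3 to 46.5 CPM). The 5 lymphocyte markers were also highest in N3 (218 CPM), followed by K4 (104 CPM) and W1 (104 CPM), against 1.21 to 29.2 CPM elsewhere, and the 5 islet markers ran from 440 CPM in C3 to 10996 CPM in L4. Macrophage (3), neutrophil (3) and fibroblast (3) markers were likewise highest in N3 and K4, at up to 59.4, 70.3 and 122 CPM, endothelial and erythroid markers ran from 30.2 to 54.3 and from 21.6 to 242 CPM, and brown adipocyte and skeletal muscle markers stayed at or below 0.859 and 1.45 CPM. The part of these cell types in the carrier values was not tested, and in whole tissue fewer cells of a type and less RNA per cell cannot be told apart.

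Cerulein lowered more carriers than it raised in wild-type pancreas. Of the 41 members with enough counts to be tested, 4 rose (Slc25a43, Slc25a25, Slc25a24 and Slc25a28), 10 fell and 27 did not pass the threshold, an adjusted p below 0.05 in edgeR's quasi-likelihood test, Benjamini-Hochberg adjusted across the 14329 genes that passed the count filter. Among all genes 17.9% were called higher and 12.8% lower, and among the members tested 9.76% and 24.4%. The median log2 fold change was -0.23 over the members and 0.05 over all genes, and 17 members had an unadjusted p below 0.05, as did 43.1% of all genes. Without regard to the test, the 3 cerulein libraries all lay above the 3 saline libraries for 4 members and below them for 16, beside 27.5% and 24.9% of all genes. The carriers that fell past the threshold handle coenzyme A, acylcarnitines, amino acids and ATP-Mg, and 3 of them have no substrate assigned. In the labelled knockout without C3, 12 of the 14 carriers called in wild type passed the threshold, and all 14 had the same sign. Of all 4399 genes called in wild type, 72% passed there with the same sign and 99.1% had the same sign.

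**Figure D1:**
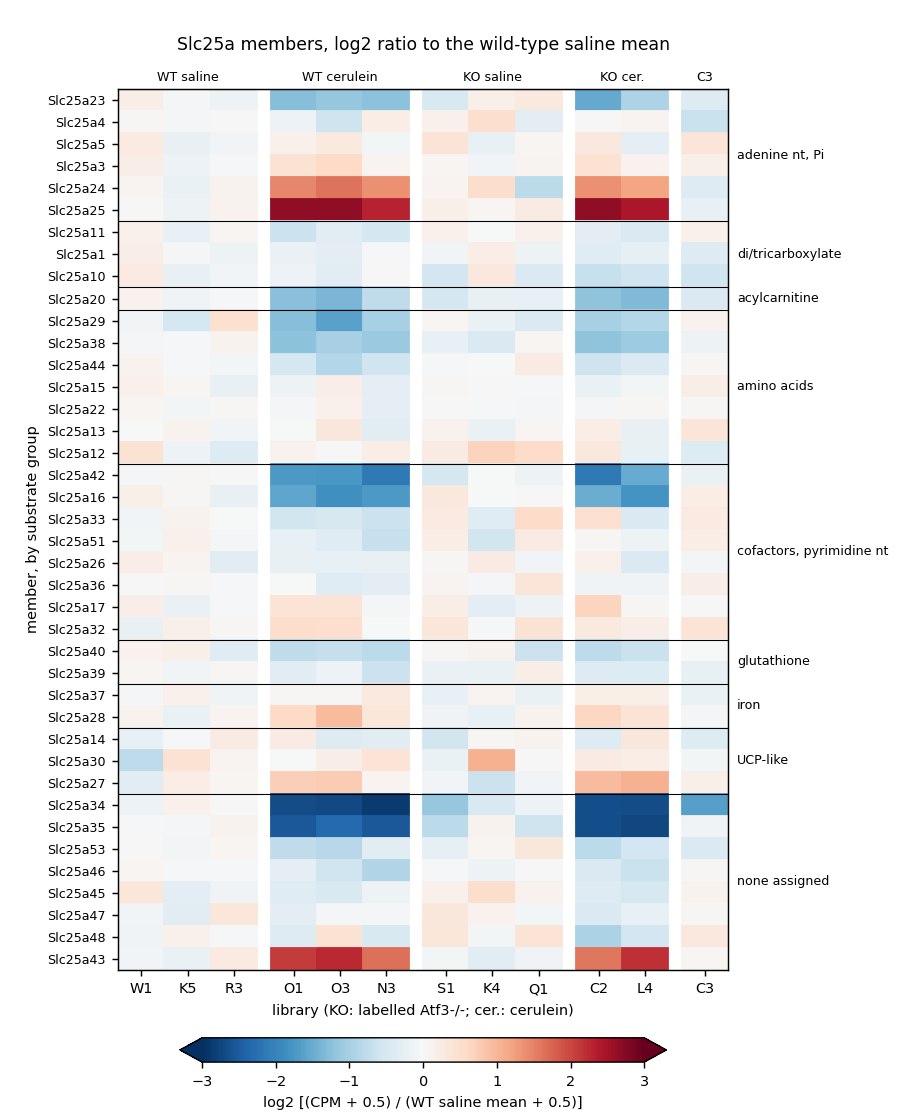
Each row is 1 of 40 tested members, ordered by substrate group, and each column is a library, with C3 in a column of its own. Colour is the log2 ratio of the level to the wild-type saline mean, both in CPM with 0.5 added, and is capped at 3 in either direction; Slc25a25, Slc25a24 and Slc25a43 are red and Slc25a34, Slc25a35, Slc25a42 and Slc25a16 blue in the 5 cerulein libraries other than C3.

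**Figure D2:**
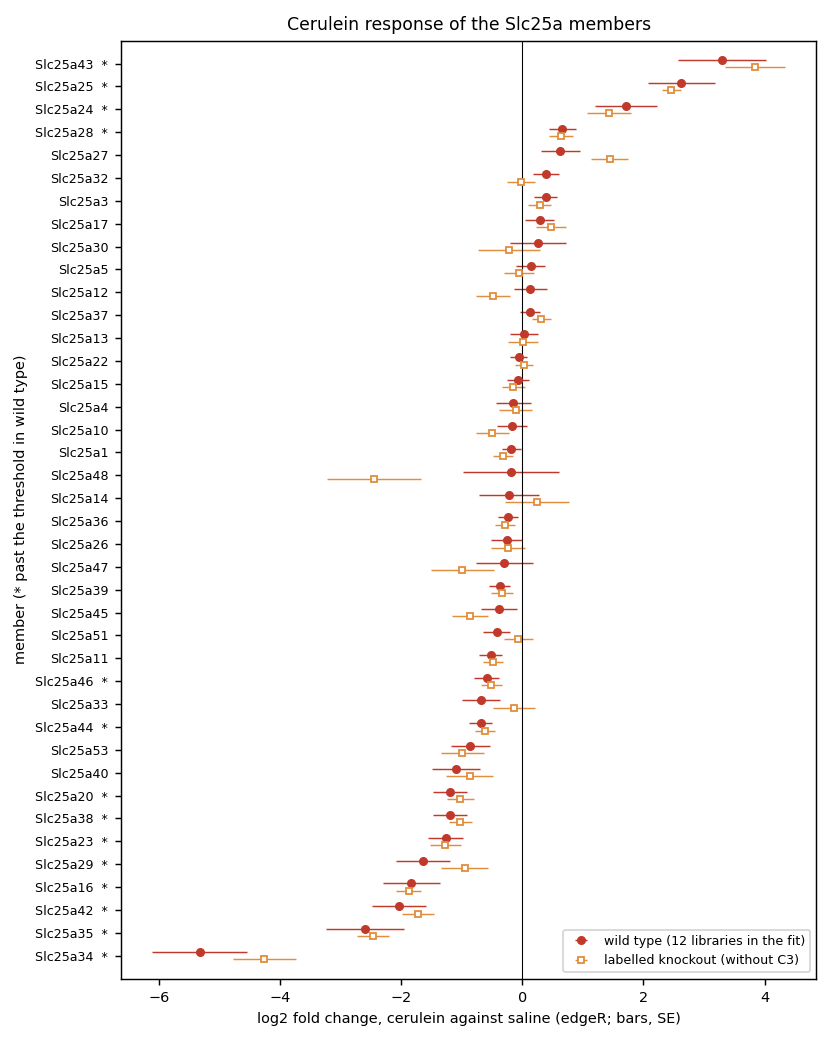
For 40 tested members, the log2 fold change of cerulein against saline is shown with its SE, as filled circles for wild type (edgeR on 12 libraries) and open squares for the labelled knockout without C3. Members run from Slc25a34 at -5.33 to Slc25a43 at 3.29 in wild type, and an asterisk marks the 14 past the threshold there.

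The ADP/ATP translocase Slc25a5 was the most abundant member per length. Per kilobase of annotated exon, the mean of the 12 libraries was 76.9 CPM for Slc25a5, 25.02 for the glutathione carrier Slc25a39, 24.7 for the phosphate carrier Slc25a3, 13.1 for the NAD carrier Slc25a51 and 8.91 for the iron carrier Slc25a28. Among these 5, cerulein changed Slc25a28 alone past the threshold in wild type. At the other end, Slc25a2, Slc25a18, Slc25a21, Slc25a31, Slc25a41 and Slc25a54 were too low to be tested, and none exceeded 0.193 CPM in any library. Slc25a41 and Slc25a54 had 0 counts in all 12 libraries, where 3 counts, the limit that a count of 0 allows, correspond to 0.0781 CPM in L4 and 0.194 CPM in W1. These limits cover counting error only.

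**Figure D3:**
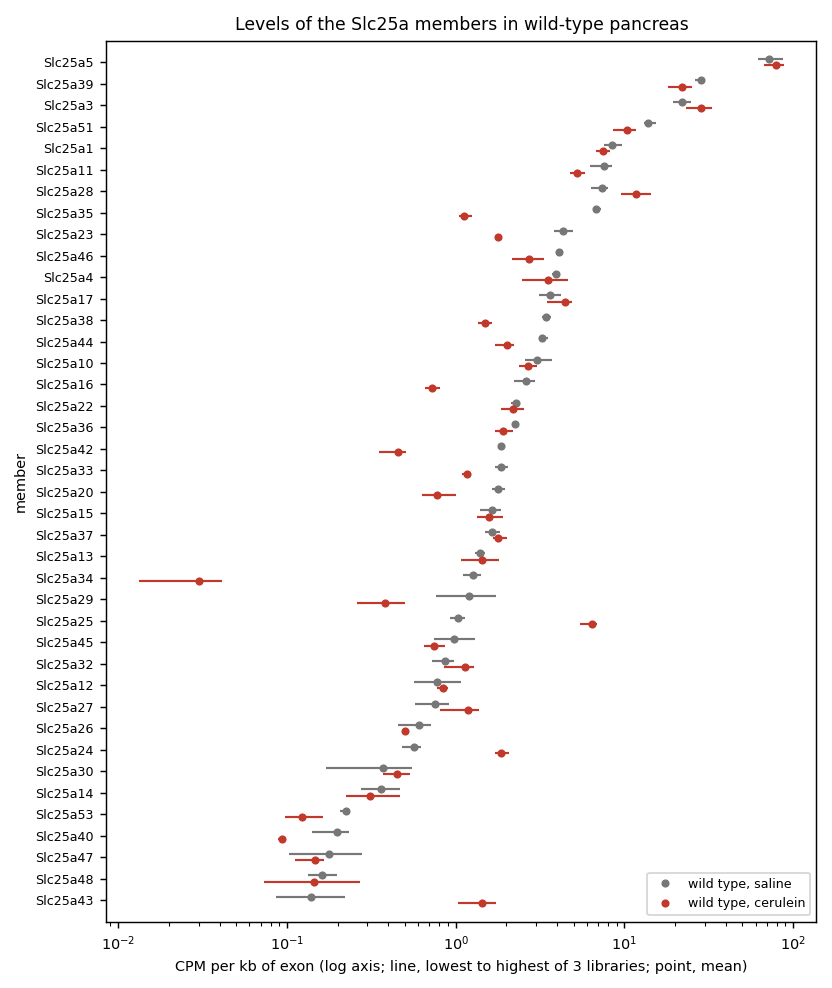
Levels of 40 tested members in wild-type pancreas are plotted in CPM per kilobase of exon on a log axis, with the mean of 3 libraries as a point and the lowest to the highest library as a line. Slc25a5 is highest in both treatments, and the saline and cerulein lines of Slc25a34, Slc25a35, Slc25a25 and Slc25a43 lie far apart.

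Of the 6 tested carriers of adenine nucleotides and phosphate, 2 rose in wild type and 1 fell, beside 17.9% and 12.8% of all genes. The other 3 did not pass. The changes were all in the ATP-Mg/phosphate carriers, calcium-binding proteins that exchange ATP-Mg for phosphate and so set the adenine nucleotide content of the matrix. Slc25a25 and Slc25a24 rose, and their relative Slc25a23 fell.

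Slc25a25, a calcium-regulated ATP-Mg/phosphate carrier (ENSMUSG00000026819, chromosome 2, 32414487 to 32451445, minus strand, GRCm38), measured 8.27, 7.24 and 8.97 CPM in wild-type saline and 54.3, 53.8 and 42.8 CPM in wild-type cerulein. All 3 cerulein libraries lay far above the saline libraries, and the means were 8.16 ± 0.87 and 50.3 ± 6.5 CPM (SD, n = 3). It rose with a log2 fold change of 2.62 ± 0.55 (SE), or 6.16-fold (edgeR adjusted p = 0.0102). Labelled knockout libraries gave 9.29, 8.55 and 9.82 CPM in saline and 54.7 and 46.5 in cerulein, while C3 had 6.8 CPM, below every saline library. The exons of Slc25a25 overlap Naif1 on the other strand. Naif1 stood at a mean of 2.63 CPM in saline and 1.85 in cerulein in wild type and did not pass the threshold (log2 fold change -0.50 ± 0.24, edgeR adjusted p = 0.141).

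The sequence before one start of Slc25a25 is shown because it was the only window among the 4 carriers that rose to hold a cAMP response element, a motif bound by CREB and ATF proteins. RefSeq (GRCm38.p6) gave 6 windows for these 4 genes, 3 of them for Slc25a25, each reaching from 250 bases before to 50 bases after a transcription start. The 250 bases before the start at chr2:32424067-32424316 on the minus strand read as follows, with the motif in capitals, beginning 150 bases before the start.
Slc25a25: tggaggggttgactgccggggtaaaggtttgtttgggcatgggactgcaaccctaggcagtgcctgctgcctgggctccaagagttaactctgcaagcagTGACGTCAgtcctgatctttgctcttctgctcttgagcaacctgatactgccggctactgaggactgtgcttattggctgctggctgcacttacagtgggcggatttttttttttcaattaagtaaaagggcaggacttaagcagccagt
TGACGTCA, searched on both strands, occurs in 1.79% of the 32851 windows of the table. AP-1 sites (TGANTCA), C/EBP-ATF sites (TGATGNAAT), E-boxes (CACGTG), the NRF1 motif and the nuclear receptor half-site AAGGTCA were found in none of the 6 windows of the risen genes, and in 7.81%, 0.965%, 7.15%, 0.971% and 4.72% of all windows, in that order. A match describes letters only, and the data hold no binding measurement.

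Slc25a24, another ATP-Mg/phosphate carrier, measured 2.07, 1.64 and 2.13 CPM in wild-type saline and 6.22, 7.06 and 5.87 CPM in wild-type cerulein. The groups did not overlap, and it rose by 1.71 ± 0.51 on the log2 scale (edgeR adjusted p = 0.0274). In the labelled knockouts it stood at 2.09, 3.03 and 0.893 CPM in saline, 5.81 and 5.07 in cerulein and 1.36 in C3, which lay within the saline range. Leaving out K5, O1, O3, R3 or W1, one at a time, ended the wild-type call of Slc25a24 (edgeR adjusted p = 0.0918, 0.0631, 0.0761, 0.0741 and 0.0703, in that order), with the log2 fold change between 1.60 and 1.78.

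Slc25a23, the ATP-Mg/phosphate carrier that moved the other way, measured 26.2, 21.97 and 20.3 CPM in wild-type saline and 9.09, 9.92 and 9.41 CPM in wild-type cerulein. Every cerulein library lay below every saline library, a log2 fold change of -1.27 ± 0.28 (edgeR adjusted p = 0.0111). Labelled knockout levels of Slc25a23 were 16.4, 25.8 and 27.9 CPM in saline, 7.51 and 11.7 in cerulein and 17.3 in C3. C3 again lay within the saline range. Per kilobase of exon, Slc25a23 stood at 3.84 to 4.96 CPM in the wild-type saline libraries, above Slc25a25 at 0.921 to 1.14 and Slc25a24 at 0.479 to 0.619.

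The other tested members of this group did not pass the threshold in wild type. Slc25a5, an ADP/ATP translocase, measured 143, 102 and 109 CPM in saline and 131, 146 and 111 in cerulein, and Slc25a3, the phosphate carrier, measured 139, 107 and 119 and 163, 184 and 128 CPM. In wild type their saline and cerulein libraries overlapped. The log2 fold changes were 0.13 ± 0.24 for Slc25a5 and 0.38 ± 0.19 for Slc25a3 (edgeR adjusted p = 0.711 and 0.14). Labelled knockout levels of Slc25a5 were 158, 98.9 and 122 CPM in saline, 146 and 96.8 in cerulein and 155 in C3. Those of Slc25a3 were 127, 113 and 129 CPM in saline, 166 and 133 in cerulein and 138 in C3. For Slc25a3 these groups did not overlap, C3 included, but the change did not pass (edgeR adjusted p = 0.425 with C3). Slc25a5 has near-identical processed copies such as Slc25a5-ps, so its counts depend on how the authors treated reads that match several places. Slc25a4, the other tested ADP/ATP translocase, ranged from 5.85 to 10.89 CPM in wild type with a log2 fold change of -0.15.

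No carrier of di- and tricarboxylates passed the threshold in wild type among 3 tested. Slc25a11 exchanges malate for 2-oxoglutarate in the malate-aspartate shuttle, and it came nearest, at 17.9, 13.3 and 16.7 CPM with saline against 10.05, 12.4 and 10.9 CPM with cerulein. These groups did not overlap, but the log2 fold change of -0.52 ± 0.19 missed the threshold (edgeR adjusted p = 0.0545) and passed it when C3 (0.0157) or L4 (0.046) was left out, with TMM without the 50 most abundant genes (0.0452), with the stricter filter (0.0441) and with the wild-type libraries alone (0.0312). The labelled knockouts gave 17.9, 15.7 and 17.7 CPM in saline, 12.8 and 11.6 in cerulein and 17.8 in C3. Without C3 their log2 fold change was -0.49 ± 0.16 (edgeR adjusted p = 0.044). Slc25a11 overlaps the exons of Rnf167 on the other strand, and Rnf167 fell in wild type (log2 fold change -1.08 ± 0.22, edgeR adjusted p = 0.00926), so reads of the overlap could not be assigned here.

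Slc25a1, the citrate carrier and the most abundant of this group per length, measured 21.1, 17.4 and 16.3 CPM in wild-type saline and 15.8, 14.7 and 17.7 in wild-type cerulein. These ranges overlapped, with a log2 fold change of -0.18 ± 0.15 (edgeR adjusted p = 0.397). Labelled knockout levels of Slc25a1 were 16.98, 21.4 and 16.4 CPM in saline, 14.2 and 14.9 in cerulein and 13.8 in C3. These groups did not overlap, C3 included, but the change did not pass (edgeR adjusted p = 0.207 with C3). Slc25a10, the dicarboxylate carrier, ranged from 8.18 to 12.8 CPM in the wild-type libraries with a log2 fold change of -0.17.

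Slc25a20, the only carrier of the acylcarnitine group, brings fatty acyl groups into the matrix for oxidation, and it fell. It measured 9.57, 7.91 and 8.42 CPM in wild-type saline and 3.35, 3.05 and 4.88 CPM in wild-type cerulein. The 3 cerulein libraries were all below the saline libraries. The highest cerulein library was N3, which was rich in adipocyte, lymphocyte and neutrophil markers. The log2 fold change was -1.19 ± 0.27 (edgeR adjusted p = 0.0118) with all libraries and -1.43 ± 0.30 (edgeR adjusted p = 0.0131) without N3. Labelled knockout saline libraries had 5.82, 7.3 and 7.2 CPM, all below the 3 wild-type saline libraries, and labelled knockout cerulein libraries had 3.47 and 3.17 CPM, with C3 at 6.14. Of the 41 tested members, Slc25a20 was the only one whose saline libraries did not overlap between genotypes, a pattern that 2.74% of all genes showed in this direction. That difference did not pass the test (log2 fold change -0.35 ± 0.27, unadjusted p = 0.222, edgeR adjusted p = 1).

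**Figure D4:**
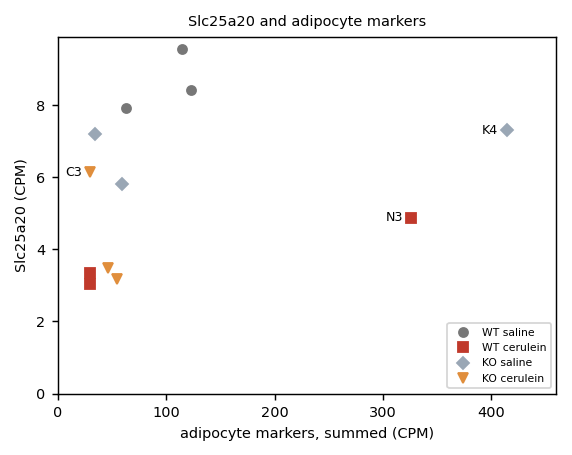
The level of Slc25a20 in each of the 12 libraries is plotted against the summed level of 5 adipocyte markers, both in CPM, with 1 symbol a group. N3 and K4 have the highest marker sums, 326 and 415 CPM. N3 holds the highest Slc25a20 level of the 3 wild-type cerulein libraries. K4, at 7.3 CPM of Slc25a20, lies near Q1, at 7.2 CPM with a marker sum of 34.3 CPM. Of the Q1 sum, 34.1 CPM was Fabp4.

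Carriers of amino acids fell or did not pass in wild type: 3 of 7 tested members were lower and none was higher, beside 12.8% and 17.9% of all genes. Those that fell carry basic amino acids (Slc25a29), glycine for haem synthesis (Slc25a38) and branched-chain amino acids (Slc25a44).

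Slc25a29 measured 2.84, 2.002 and 4.53 CPM in wild-type saline and 0.994, 0.677 and 1.31 CPM in wild-type cerulein. The groups did not overlap, and the log2 fold change was -1.64 ± 0.44 (edgeR adjusted p = 0.0196). In the labelled knockouts, Slc25a29 had 3.26, 2.67 and 2.2 CPM in saline, 1.32 and 1.48 in cerulein and 3.47 in C3, and C3 was above all 3 saline libraries of its genotype. Without C3 the labelled knockout change was -0.95 ± 0.39 and missed the threshold (edgeR adjusted p = 0.091). The wild-type call of Slc25a29 was lost without O1, O3 or R3 (edgeR adjusted p = 0.0604, 0.0742 and 0.0831).

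Slc25a38 measured 8.98, 9.14 and 10.1 CPM in wild-type saline and 3.72, 4.5 and 4.1 CPM in wild-type cerulein. It fell with a log2 fold change of -1.20 ± 0.28 (edgeR adjusted p = 0.0126), and no cerulein library reached a saline library. The labelled knockouts gave Slc25a38 levels of 7.91, 6.77 and 9.82 CPM in saline, 3.81 and 4.16 in cerulein and 8.39 in C3. Slc25a44 measured 12.6, 11.3 and 11.1 CPM in wild-type saline and 7.99, 6.14 and 7.53 in wild-type cerulein, again without overlap. Its smaller decrease, -0.69 ± 0.20 on the log2 scale, passed the threshold (edgeR adjusted p = 0.0235), but not without K5, O3, R3 or W1 (edgeR adjusted p = 0.0589, 0.0905, 0.0568 and 0.0742). The labelled knockouts had 11.3, 11.5 and 13.9 CPM of Slc25a44 in saline, 7.4 and 8.48 in cerulein and 11.997 in C3.

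The other 4 tested amino acid carriers moved little in wild type, with log2 fold changes from -0.07 to 0.13. They were Slc25a12 and Slc25a13, the aspartate/glutamate carriers of the malate-aspartate shuttle, Slc25a15, an ornithine carrier of the urea cycle, and Slc25a22, a glutamate carrier. Their levels lay between 4.10 and 15.2 CPM in the 12 libraries, and the smallest adjusted p in wild type was 0.747, for Slc25a12.

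Among carriers of cofactors and pyrimidine nucleotides, both members linked to coenzyme A in the mitochondrion fell, and the other 7 did not pass. Past the threshold, 12.8% of all genes fell in wild type and 17.9% rose. Slc25a42, which exchanges coenzyme A for adenine nucleotides, measured 10.7, 11.6 and 11.3 CPM in wild-type saline and 3.06, 2.999 and 2.12 CPM in wild-type cerulein. All cerulein libraries were far below the saline libraries, with a log2 fold change of -2.04 ± 0.45 (edgeR adjusted p = 0.0108). The labelled knockouts gave Slc25a42 levels of 7.61, 11.1 and 10.003 CPM in saline, 2.15 and 3.56 in cerulein and 9.65 in C3.

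Slc25a16, a carrier linked to mitochondrial coenzyme A, measured 14.2, 12.8 and 10.6 CPM in wild-type saline and 3.87, 3.14 and 3.47 CPM in wild-type cerulein. The groups were far apart, and the log2 fold change was -1.84 ± 0.47 (edgeR adjusted p = 0.0163). Labelled knockout levels of Slc25a16 were 15.7, 12.4 and 12.6 CPM in saline, 4.15 and 3.23 in cerulein and 14.6 in C3, the last within the saline range. The wild-type call of Slc25a16 was lost without O3 (edgeR adjusted p = 0.0622, log2 fold change -1.77). With C3 left out of the fit, the SE of Slc25a16 dropped to 0.18 at the same fold change.

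The 7 cofactor and pyrimidine nucleotide carriers that did not pass included the abundant NAD carrier Slc25a51, with 71.8, 84.5 and 72.8 CPM in wild-type saline and 64.2, 59.1 and 47.2 in wild-type cerulein. The log2 fold change of Slc25a51 was -0.43 ± 0.23 (edgeR adjusted p = 0.178), although these groups did not overlap. In the labelled knockouts Slc25a51 had 89.7, 51.5 and 90.4 CPM in saline, 78.02 and 68.98 in cerulein and 89.8 in C3, and the groups overlapped. The remaining 6 had wild-type log2 fold changes from -0.68 (Slc25a33, a pyrimidine nucleotide carrier) to 0.39 (Slc25a32, a folate and FAD carrier).

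Of the glutathione carriers, neither passed in wild type. Slc25a39, which brings glutathione into the matrix, measured 81.7, 72.7 and 80.5 CPM with saline against 61.95, 69.3 and 50.2 CPM with cerulein. The groups did not overlap, with a log2 fold change of -0.37 ± 0.17 (edgeR adjusted p = 0.124). Labelled knockout levels of Slc25a39 were 68.4, 68.02 and 89.5 CPM in saline, 59.4 and 59.2 in cerulein and 66.4 in C3. Again the groups did not overlap, C3 included, and the change of Slc25a39 did not pass (edgeR adjusted p = 0.321 with C3). Its less abundant relative Slc25a40 measured 1.87, 1.95 and 1.18 CPM in saline and 0.773, 0.822 and 0.743 in cerulein, also without overlap. The log2 fold change of Slc25a40 was -1.09 ± 0.40 (edgeR adjusted p = 0.0577), and it passed only when C3 was left out of the fit (0.0287), with DESeq2 (0.0414) or with the wild-type libraries alone (0.031). The labelled knockouts gave Slc25a40 levels of 1.72, 1.83 and 0.893 CPM in saline, 0.755 and 0.859 in cerulein and 1.64 in C3.

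Of the iron carriers, the widely expressed mitoferrin Slc25a28 rose and the erythroid mitoferrin Slc25a37 did not pass. Slc25a28 measured 29.8, 23.9 and 29.4 CPM in wild-type saline and 41.9, 53.9 and 35.7 CPM in wild-type cerulein, without overlap. The increase was small, 0.66 ± 0.22 on the log2 scale (edgeR adjusted p = 0.0396). Labelled knockout levels of Slc25a28 were 25.3, 23.1 and 29.9 CPM in saline, 43.8 and 37.3 in cerulein and 26.7 in C3. The wild-type call of Slc25a28 was lost when K4, K5, O1, O3, R3, S1 or W1 was left out (edgeR adjusted p = 0.0579, 0.136, 0.0815, 0.154, 0.0878, 0.0567 and 0.0764). Slc25a37 stayed between 9.01 and 12.1 CPM in wild type, with a log2 fold change of 0.13.

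The 3 carriers that resemble uncoupling proteins, Slc25a14, Slc25a27 and Slc25a30, did not pass in wild type. Slc25a27, also called UCP4, measured 2.26, 3.59 and 3.11 CPM in wild-type saline and 5.3, 5.42 and 3.18 CPM in wild-type cerulein, where N3 lay within the saline range. Its wild-type log2 fold change was 0.63 ± 0.33 (edgeR adjusted p = 0.166). In the labelled knockouts Slc25a27 stood at 2.76, 1.74 and 2.74 CPM in saline, 6.23 and 6.84 in cerulein and 3.47 in C3. Without C3 it rose in the labelled knockout by 1.44 ± 0.30 on the log2 scale (edgeR adjusted p = 0.00495). The difference between the genotypes' responses did not pass (log2 difference 0.81 ± 0.41 without C3, edgeR adjusted p = 1).

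The largest increase and the largest decrease were both in carriers to which no substrate was assigned. Of the 8 tested, 1 rose and 3 fell in wild type, beside 17.9% and 12.8% of all genes, and 4 did not pass. Slc25a43 (ENSMUSG00000037636, chromosome X, 36743659 to 36777202, plus strand, GRCm38) measured 0.194, 0.154 and 0.394 CPM in wild-type saline and 2.72, 3.1 and 1.84 CPM in wild-type cerulein. Every cerulein library lay well above the saline libraries, with a log2 fold change of 3.29 ± 0.72 (edgeR adjusted p = 0.0107). The saline level rests on few reads, 16 counts over 3 libraries against 190 in cerulein. Scaled for depth, this was a 9.42-fold increase, with a 95% counting interval of 5.65 to 16.8. That interval pools the reads of each group and leaves out the spread between animals. Labelled knockout levels of Slc25a43 were 0.209, 0.089 and 0.179 CPM in saline, 1.77 and 2.89 in cerulein and 0.281 in C3, the last within the range of the saline libraries.

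Slc25a34 (ENSMUSG00000040740, chromosome 4, 141618824 to 141623821, minus strand, GRCm38) measured 2.97, 3.8 and 3.42 CPM in wild-type saline and 0.11, 0.0967 and 0.0354 CPM in wild-type cerulein. It was nearly lost in all 3 cerulein libraries, 6 counts in total against 207 in saline. Scaled for depth, the saline level was 43.5-fold that in cerulein (95% counting interval 19.7 to 120). This interval covers the counting error of pooled reads only, not the spread between animals. The log2 fold change was -5.33 ± 0.78 (edgeR adjusted p = 0.00918). The labelled knockouts had 1.26, 2.31 and 2.98 CPM in saline and 0.113 and 0.104 in cerulein. C3 had 0.75 CPM, below all 6 saline libraries and above the other cerulein libraries.

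The sequence before the start of Slc25a34 is shown because it was the only one of 8 windows of the 7 fallen genes in the table to hold any of the motifs searched. It is a nuclear receptor half-site, AAGGTCA on one strand and TGACCTT on the other, and begins 119 bases before the start. The 250 bases at chr4:141623835-141624084 on the minus strand (RefSeq, GRCm38.p6) read as follows, with the half-site in capitals.
Slc25a34: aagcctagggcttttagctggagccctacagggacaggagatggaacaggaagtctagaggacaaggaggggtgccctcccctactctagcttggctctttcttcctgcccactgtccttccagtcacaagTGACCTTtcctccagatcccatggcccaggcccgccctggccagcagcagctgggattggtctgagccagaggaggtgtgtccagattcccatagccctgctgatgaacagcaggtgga
This half-site occurs in 4.72% of all windows, and no match in the other windows says only that these letters are not there. Windows were found for 36 of the 47 members. Over those 36, TGACGTCA was also present in Slc25a36, which did not pass the threshold. CACGTG was present in 7 genes, of which none passed and 1, Slc25a31, was too low to be tested. AP-1 sites (TGANTCA) were present in 2 genes, Slc25a11 and Slc25a13, neither of which passed in wild type with all 12 libraries.

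Slc25a35, a close relative of Slc25a34, measured 24.2, 24.1 and 26.8 CPM in wild-type saline and 3.87, 4.6 and 3.89 CPM in wild-type cerulein. The groups were far apart, with a log2 fold change of -2.60 ± 0.65 (edgeR adjusted p = 0.0148). Labelled knockout levels of Slc25a35 were 14.1, 26.8 and 16.1 CPM in saline, 3.51 and 3.33 in cerulein and 22.7 in C3, which was within the saline range. The wild-type call of Slc25a35 was lost without O1 or O3 (edgeR adjusted p = 0.0519 and 0.052). Its exons overlap Rangrf on the other strand, which fell from a mean of 2.27 to 0.957 CPM in wild type (log2 fold change -1.24 ± 0.35, edgeR adjusted p = 0.0227). The counting's strand setting is not given in the sources used here, so reads from the overlap could not be assigned.

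Slc25a46, an outer-membrane protein of mitochondrial dynamics, measured 23.3, 21.9 and 21.96 CPM in wild-type saline and 18.1, 14.7 and 11.7 CPM in wild-type cerulein. It fell by the least of the 10 that fell, with a log2 fold change of -0.59 ± 0.20 (edgeR adjusted p = 0.0466), although the groups did not overlap. The call was lost when any 1 of C2, K4, K5, N3, O3, Q1, R3, S1 and W1 was left out (edgeR adjusted p = 0.0585, 0.0559, 0.1005, 0.1397, 0.119, 0.0656, 0.103, 0.0666 and 0.1205). Labelled knockout levels of Slc25a46 were 21.8, 20.2 and 22.6 CPM in saline, 16.4 and 13.8 in cerulein and 22.9 in C3. Without C3 the labelled knockout change was -0.51 ± 0.18 (edgeR adjusted p = 0.0528), on the other side of the threshold.

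Slc25a48 was low and passed only in the labelled knockout without C3. It measured 0.452, 0.667 and 0.512 CPM in wild-type saline and 0.294, 0.919 and 0.248 in wild-type cerulein, with overlap. Its labelled knockout levels were 0.837, 0.49 and 0.893 CPM in saline, 0.0377 and 0.208 in cerulein and 0.797 in C3. Without C3 the labelled knockout log2 fold change was -2.45 ± 0.77 (edgeR adjusted p = 0.036). It rests on few reads, 1 count in C2 and 8 in L4 against 20, 11 and 15 in labelled knockout saline. The other 3 tested members of this group, Slc25a45, Slc25a47 and Slc25a53, had wild-type log2 fold changes from -0.86 to -0.30, the first being Slc25a53 (edgeR adjusted p = 0.0596).

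**Figure D5:**
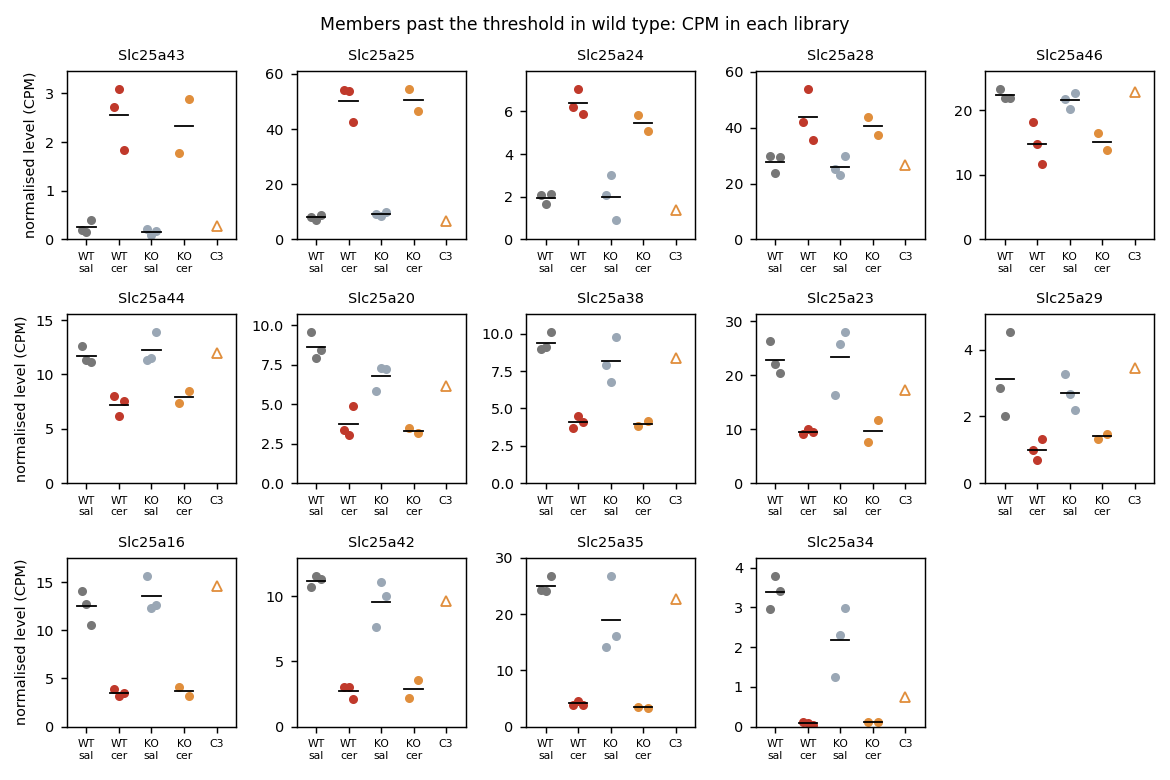
Levels in CPM are shown for the 14 members past the threshold in wild type, 1 panel a gene, with a point for each library, a line at each group mean (sal, saline; cer, cerulein) and C3 as an open triangle. C3 lies with the saline libraries in 12 panels; in those of Slc25a25 and Slc25a34 it is below all 6 of them.

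In the labelled knockouts the result depended on C3. With all 12 libraries, 0 of 41 members passed the threshold for cerulein against saline, as did 0% of all genes. An unadjusted p below 0.05 was found for 9 members, beside 22.7% of all genes. DESeq2 on the same libraries called 3 members higher (Slc25a25, Slc25a27 and Slc25a43) and 2 lower (Slc25a23 and Slc25a34), beside 8.48% and 0.817% of all genes, and limma-voom called none. At an unadjusted p below 0.05 there were 10 members with DESeq2 and 16 with limma-voom, beside 24.1% and 22.5% of all genes. Without C3, edgeR called 5 members higher and 10 lower, beside 18.7% and 10.5% of all genes, and the members' median log2 fold change was -0.33 against 0.00 over all genes. Cerulein and saline libraries did not overlap for 3 members higher and 6 lower with C3 (9.41% and 6.35% of all genes), and for 7 higher and 21 lower without it (29.3% and 23.7%). The wild-type and labelled knockout comparisons share no library. They are not independent tests, because each fit shares its scaling, count filter and estimate of spread across the groups.

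C3 sat with the saline libraries for nearly all carriers that cerulein changed. Of the 14 called in wild type, it lay within the range of the 6 saline libraries in 12, the exceptions being Slc25a25 at 6.8 CPM and Slc25a34 at 0.75 CPM. In CPM, C3 was nearer to the mean of C2 and L4 than to the labelled knockout saline mean only for Slc25a34. On log2 of CPM plus 0.1, C3 was nearer to the labelled knockout saline mean for all 14. Without C3 the largest labelled knockout changes were again those of Slc25a34 (-4.26 ± 0.52), Slc25a43 (3.84 ± 0.49), Slc25a35 (-2.47 ± 0.26) and Slc25a25 (2.46 ± 0.16), as log2 fold changes with SE (edgeR adjusted p = 0.000203, 0.000282, 9.38e-05 and 5.98e-06). With C3 the same values were -2.83 ± 0.67, 3.35 ± 0.76, -0.96 ± 0.61 and 1.97 ± 0.54, and none passed (edgeR adjusted p = 0.086, 0.086, 0.345 and 0.0881). Also past the threshold without C3 were the coenzyme A carriers Slc25a16 (-1.88 ± 0.20) and Slc25a42 (-1.73 ± 0.26) and the acylcarnitine carrier Slc25a20 (-1.02 ± 0.23).

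No carrier differed between the genotypes past the threshold. In saline, labelled knockout against wild type gave 0 of 41 members past the threshold and none at an unadjusted p below 0.05 in edgeR, or 0 and 1 (Slc25a12, unadjusted p = 0.0493) without C3, with DESeq2 and limma-voom also calling none (0 and 1 at an unadjusted p below 0.05). Of all genes, 0.419% had an unadjusted p below 0.05 in saline in edgeR, or 0.903% without C3. The log2 differences ran from -0.67 (Slc25a43) to 0.56 (Slc25a12, an aspartate/glutamate carrier). In cerulein 0 members passed with or without C3, and 4 had an unadjusted p below 0.05 with all libraries (Slc25a16, Slc25a29, Slc25a33 and Slc25a34) against 2 without C3 (Slc25a33 and Slc25a48). DESeq2 (0.0489% of all genes higher and 0.0279% lower) and limma-voom called no member in cerulein either, with 6 and 0 at an unadjusted p below 0.05. No gene at all passed in edgeR in either comparison.

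The test of the difference between the cerulein responses of the genotypes called 0 members, and 0 of all genes, in edgeR with and without C3. DESeq2, with 0.00698% of all genes called, and limma-voom called no member either. With all libraries 1 member had an unadjusted p below 0.05, Slc25a34, whose response differed by 2.50 ± 1.02 (labelled knockout minus wild type, log2, edgeR adjusted p = 0.811). Without C3 that difference was 1.07 ± 0.72, and the 1 member with an unadjusted p below 0.05 was Slc25a48 (-2.26 ± 0.98, unadjusted p = 0.0431). Of all genes, 4.15% had an unadjusted p below 0.05 for this difference with all libraries and 3.45% without C3. For Slc25a25 the difference without C3 was -0.17 ± 0.21, for Slc25a35 0.13 ± 0.33 and for Slc25a42 0.31 ± 0.34. Over the 14 carriers called in wild type these differences ran from -0.29 (Slc25a24) to 1.07 (Slc25a34). With 3 animals a group, or 2 without C3, a p that misses the threshold does not show that the responses were alike.

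Proteins that work with the carriers were read from 4 lists. The TIM22 import route, which inserts the carriers into the inner membrane, had 3 of 10 tested members higher and none lower in wild type, with a median log2 fold change of 0.45. Among all genes 17.9% rose and 12.8% fell in wild type, with a median of 0.05. The small chaperones Timm9 (1.18 ± 0.28, edgeR adjusted p = 0.0126) and Timm10 (1.09 ± 0.27, edgeR adjusted p = 0.0142) and the receptor Tomm70a (0.59 ± 0.14, edgeR adjusted p = 0.0132) rose. Of the enzymes that supply or use the carriers' substrates, 7 of 20 tested rose and 7 fell. Among those that rose were cytosolic aspartate aminotransferase Got1 (2.14 ± 0.54) and cytosolic glycerol-3-phosphate dehydrogenase Gpd1 (2.07 ± 0.58; edgeR adjusted p = 0.0152 and 0.0234). Other membrane transport proteins had 2 of 21 tested higher and 4 lower, with Micu3, a regulator of the calcium uniporter, higher (1.78 ± 0.32) and the sideroflexin Sfxn2 (-1.46 ± 0.35) and the sodium/calcium exchanger Slc8b1 (-1.32 ± 0.35) lower. None of the 3 tested family members under other symbols passed, the most abundant being Ucp2 (-0.69 ± 0.25, edgeR adjusted p = 0.0595), which passed without C3 (0.0353). In the labelled knockout no member of the 4 lists passed with C3. Without it, when 18.7% of all genes were called higher and 10.5% lower, the counts were 3 higher and 1 lower for the import route, 7 and 6 for the enzymes, 3 and 6 for other membrane transport, and 1 and 0 for the family members under other symbols.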

How the data were processed

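RNA from 12 pancreata was sequenced from TruSeq Stranded Total RNA libraries, per the labels' protocols. The deposited values are raw counts per gene that the authors made with HTSeq on mm10, per the submitters' processing notes, which also name DESeq2. Its strand setting and the versions were not given in the sources used here. The 12 members whose exons overlap a gene on the other strand are uncertain for that reason. Among them are Slc25a10, Slc25a11, Slc25a18, Slc25a21, Slc25a23, Slc25a25, Slc25a26, Slc25a33, Slc25a35, Slc25a37 and Slc25a46. Slc25a47 and Slc25a51 overlap a gene on the same strand and are uncertain whatever the strand setting.

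Counts were tested with edgeR 4.0.16 (R 4.3.3): TMM scaling, filterByExpr, robust quasi-likelihood fit of 4 group means on 12 libraries, two-sided F test, Benjamini-Hochberg adjustment over 14329 genes and a threshold of 0.05. The SE of a log2 fold change is its size divided by the square root of F. CPM are counts divided by the library total times its TMM factor, scaled to 1e6, and levels per kilobase divide by the length of all annotated exons (GENCODE M21, which matched 49326 genes). The fit was tested on simulated counts. Alternatives were each library left out, DESeq2 (1.42.0) size factors, TMM without the 50 most abundant genes, no filter, at least 1 CPM in 3 libraries, DESeq2, limma-voom (limma 3.58.1) and wild-type libraries alone. The members and lists were chosen with earlier results of these data known, and none is independent evidence. Values of every library are given for members past the threshold in any comparison, for the most abundant member per length of each substrate group and for the 5 most abundant overall. Of each companion list up to 3 of the largest changes are named. The values of 1 member and 1 companion gene are not reported here. The count ratios of Slc25a34 and Slc25a43, and the plot against adipocyte markers were chosen after their values were seen. Replicates are separate animals, per the series design.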

Additional observations from a re-analysis of the deposited data

How the results depend on the processing

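The wild-type counts moved most when a library was left out: 2 to 4 members were higher (2 without K5, O1, O3, R3 or W1) and 5 to 12 lower (5 without O3, 12 without C3). The other settings gave 4 higher and 8 to 14 lower, the 14 from the wild-type libraries alone, which added Slc25a11, Slc25a33, Slc25a40 and Slc25a51 (edgeR adjusted p = 0.0312, 0.0298, 0.031 and 0.042). Slc25a20, Slc25a23, Slc25a25, Slc25a34, Slc25a38, Slc25a42 and Slc25a43 kept their wild-type call in every setting run. Slc25a44 lost it without a filter on low counts (edgeR adjusted p = 0.0741), and Slc25a46 with DESeq2 size factors (0.0527) and without a filter (0.103). Leaving out C3 kept every wild-type call and added Slc25a11 and Slc25a40. Over the left-out libraries, the wild-type edgeR adjusted p ran from 3.2e-05 to 0.0622 for Slc25a16 and from 1.74e-05 to 0.052 for Slc25a35. It ran from 0.00265 to 0.0918 for Slc25a24, 0.00398 to 0.0831 for Slc25a29 and 0.00405 to 0.0905 for Slc25a44. For Slc25a28 and Slc25a46 it ran from 0.0134 to 0.154 and from 0.0131 to 0.14. In the labelled knockout, leaving out a library gave 0 to 5 higher and 0 to 10 lower, and only C3 moved these from 0; DESeq2 called 3 higher and 2 lower. The saline, cerulein and response-difference comparisons stayed at 0 members in each setting run for them. Signs turned for values that never passed there: Slc25a48 in wild type was 0.13 without N3 and 0.076 without O1, with a range over left-out libraries of -0.99 to 0.13. In the labelled knockout, Slc25a5 was -0.0069 without C2, -0.05 without C3 and -0.11 without K4, and Slc25a51 was -0.07 without C3, -0.22 without K4 and -0.039 with TMM without the 50 most abundant genes; their ranges over left-out libraries were -0.11 to 0.27 and -0.22 to 0.16. The cause of these changes was not tested. The scalings moved the median log2 fold change of all genes by under 0.1. No paired analysis was possible because the groups share no replicate number. Slc25a34 in cerulein, Slc25a43 in saline and Slc25a48 in C2 and L4 rest on few counts, and 6 members were below what this depth can test.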
